A study of Drosophila melanogaster with 24 samples.

Results

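On a microarray of 22575 spots, 114 probes (0.505%) were brighter in fly pupae of both sexes than in embryos, adult male heads and adult male abdomens. They were chosen from the measured values. A probe was kept when the lowest of its 3 pupal group means lay at least 1 log2 unit above the highest of its 3 non-pupal group means. The height of pupae over the other groups is therefore what chose the probes. It is given below as a description, without a test. No spot is paired with a gene or a sequence in the tables used here, so each probe is called by its number in spot order and by its row and column on the array.

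The study measured RNA from Drosophila melanogaster, the fruit fly, of the isogenic line WI89 in 24 samples that formed 6 groups of 4. Female and male pupae came from white prepupae collected 0 to 1 h after they formed the puparium and then kept at 25 °C for 12 h. In the mixed-sex samples the authors joined equal parts of RNA from both sexes. Embryos were of both sexes and mixed ages, from 24 h of egg laying. Heads and abdomens were dissected from males aged 24 to 48 h. No adult female, larval or later pupal sample was measured here, so bright in pupae means bright against these 3 other groups. The labels do not say whether replicates came from separate collections of animals, and p-values measure the spread between these samples. Because whole pupae, whole embryos and body parts were compared, fewer cells of a type and less RNA per cell cannot be told apart.

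As background, the puparium forms when a pulse of the steroid hormone ecdysone ends larval life. In the hours that follow, a further pulse sets off pupation. Larval tissues such as the salivary glands and gut begin to break down, while imaginal discs evert to form the legs and wings and a pupal cuticle is laid down. Transcripts of this interval are known to include ecdysone-induced regulators and cuticle proteins. Which of these the 114 probes measure was not analysed here.

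The labels give 12 samples dyed with Cy3 and 12 with Cy5, and spots carrying a quality mark followed identical patterns in pairs of samples of opposite dye, which gave 12 arrays of 2 samples. The median net signal of a sample, in scanner units, ran from 60.8 to 144 in Cy3 and from 5.19 to 61.7 in Cy5. Every spot was above background in each Cy3 sample, and at least 74.0% of spots were in each Cy5 sample. All 114 probes were above background in each pupal sample, and at least 89.5% of them in each non-pupal sample. Values below are log2 signals corrected for background with an offset of 50, which understates the change of dim probes, and quantile normalized over the 24 samples. Each error is the SD over the samples of a group, with n = 4 unless fewer are given.

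Among the 114 probes, the margin between the lowest pupal and the highest non-pupal mean had a median of 1.79, which is 3.46-fold, with quartiles of 1.20 and 2.38. It reached 2 in 45 probes and 3 in 11, and was largest at 4.26 in probe 10859. The threshold cut through a continuous range. Probes 4419, 1910 and 18946 lay just inside it, each with a margin of 1.01, and probes 8846, 14381 and 10911 just outside it, with 0.998, 0.992 and 0.978. A further 124 probes had a margin between 0.5 and 1. The opposite pattern, with each pupal mean at least 1 below each non-pupal mean, was found in 22 probes (0.0975%).

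The median over the probes of the group mean was 9.16 in female, 8.97 in male and 8.92 in mixed-sex pupae. It was 6.69 in embryos, 6.65 in heads and 6.70 in abdomens, against a median of 6.21 over all values on the arrays. All 12 pupal samples lay above all 12 non-pupal samples in 113 of the 114 probes, with probe 11324 the exception. Over all probes this held for 1.21%. The rule used this contrast, so nothing is read from the count. By sample, the median over the probes was 9.25, 9.03, 9.26 and 9.06 in the female, 9.19, 8.77, 9.16 and 8.84 in the male, and 9.23, 8.88, 9.07 and 8.83 in the mixed-sex replicates. Embryo replicates had 6.75, 6.50, 6.82 and 6.81, head replicates 6.47, 6.53, 7.10 and 6.57, and abdomen replicates 6.71, 6.54, 6.57 and 6.85. The third head sample was the highest of the non-pupal samples by this normalised median and still far below every pupal one. Its median net signal over all spots, 5.19 scanner units, was the lowest of the 24 samples. Not all of the probes were dim outside pupae: 51 had at least 1 non-pupal mean above the 90th percentile of all probes in that group. In contrast, 40 had all 3 non-pupal means below the upper quartile.

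Probe 8495 (row 40, column 110) showed the pattern of a probe that was near the median of all values, 6.21, outside pupae. Female pupae had values of 10.44, 9.93, 9.99 and 10.01, male pupae 10.62, 10.12, 10.76 and 10.17, and mixed-sex pupae 10.74, 9.99, 10.35 and 10.39. Embryos had 6.46, 5.82, 6.09 and 6.14, heads 6.13, 5.92, 6.61 and 5.97, and abdomens 6.33, 5.89, 5.84 and 6.54. The pupal and non-pupal samples did not come near each other, and the 3 non-pupal means of 6.13, 6.16 and 6.15 differed by less than the spread within any of those groups.

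Probe 19839 (row 93, column 59) had pupal means that lay within the spread of their replicates, and was brightest in abdomens among the others. Its means were 11.11 ± 0.13 in female, 11.04 ± 0.25 in male and 11.17 ± 0.41 in mixed-sex pupae. In abdomens it measured 7.15, 6.91, 7.41 and 7.32, in embryos 6.48, 5.98, 6.34 and 6.33, and in heads 6.20, 6.45, 7.28 and 6.28. Each abdomen sample lay above each embryo sample, while 1 head sample, replicate 3, reached into the abdomen range.

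Probe 1553 (row 8, column 48) had a steady pupal signal, at 11.19 ± 0.16, 10.98 ± 0.08 and 11.23 ± 0.20 in female, male and mixed-sex pupae. Outside pupae it kept a level of 7.27 ± 0.24 in embryos, 7.11 ± 0.55 in heads and 7.18 ± 0.18 in abdomens. Its level was close to the 90th percentile of all probes in those groups. Probe 11949 (row 56, column 124), with a margin of 3.78, had 4 spots left out for quality marks, and its 3 pupal means were 10.71, 10.83 and 10.89 over 3 samples each.

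The other leading probes by margin were 2774, 18585, 15007, 6238, 6773, 6497 and 8010, with margins from 3.61 down to 2.998. Probe 6238 was the highest-ranked spot of the sample in 7 of its 8 measured pupal samples. Quantile normalization gives that rank the same value, 13.42, in every sample, so these equal values hold no replicate spread. None of the 12 leading probes passed the test between female and male pupae, with limma adjusted p from 0.0764 in probe 6497 to 0.977.

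In the probe with the largest margin, the non-pupal samples fell into 2 separate levels. Probe 10859 (row 51, column 109) measured 9.47, 6.47, 8.89 and 8.90 in embryos. Heads had 6.498, 6.40, 10.004 and 6.497, and abdomens 8.45, 6.49, 6.37 and 9.17. Its pupal means were 12.80 ± 0.72 (n = 3), 13.12 ± 0.26 (n = 3) and 12.69 ± 0.34. The 6 non-pupal samples above 8 were the 6 that shared an array with a pupal sample, and the 6 between 6.37 and 6.498 shared an array with another non-pupal sample. This division was noticed after the values were seen.

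Probe 8010 divided the same samples, with 8.81, 6.62, 9.24 and 9.22 in embryos. Heads had 6.11, 6.26, 9.53 and 6.502, and abdomens 7.95, 6.23, 6.11 and 8.57. The difference between samples with and without a pupal sample on the array was averaged over those of the 3 groups that had values. It was 2.85 in probe 10859, 2.60 in probe 8010, 1.76 in probe 12779, 1.08 in probe 6238 and 1.03 in probe 10491. Probe 6238 had no such value in heads, so its average covers embryos (1.67) and abdomens (0.49) alone. The difference was at least 1 in these 5 probes and positive in 107 of the 114, with a median of 0.26. Over all probes it was positive in 50.7%, at least 1 in 0.031%, and had a median of 0.00. In 12 of the 114 probes (10.5%), all 6 such samples lay above the other 6, against 0.159% of all probes.

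In scanner units the net signal of probe 10859 in the Cy5 embryo, head and abdomen samples sharing an array with pupae was 4.56%, 2.29% and 3.15% of the signal of the pupal sample. In the Cy3 samples it was 19.0% and 18.4% in embryos and 34.3% in abdomens. These shares compare 2 channels of different brightness. The normalised log2 values of the same samples ran the other way, from 9.17 to 10.004 in the Cy5 and from 8.45 to 8.90 in the Cy3 samples. The part of the shared array in these levels was not tested.

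The median over the 114 probes showed the same division at a smaller size. It was 6.71 to 7.10 in the 6 non-pupal samples with a pupal sample on their array and 6.47 to 6.57 in the other 6. Male heads replicate 3 stood highest, at 7.10 against 6.47 to 6.57 in the other head samples, and 97 of 112 probes measured there lay above the head mean. Without the 6 samples, which left 1 embryo, 3 head and 2 abdomen samples, the rule found 126 probes, of which 111 were among the 114. The margin then became 6.22 in probe 10859 (4.26 with all samples), 4.85 in probe 8010 (2.998) and 4.61 in probe 6238 (3.36), and 4.09 in probe 8495 (3.94). The median margin was 1.91.

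Within the 6 arrays that held a pupal and a non-pupal sample, every measured probe of the 114 was brighter in the pupal sample. The rule chose the probes by this contrast in the same samples, so nothing is read from the count. The median difference was between 1.90 and 2.23 across these arrays, while the median of all probes was near 0. In Cy3 samples alone the rule found 114 probes and in Cy5 samples alone 107, of which 88 were shared (77.2% and 82.2% of the lists). All 88 were among the 114 probes, and 3 of the 114 were in neither list. Each group was split evenly between the dyes. A probe in both lists therefore had to pass the rule over all samples, save for spots left out, and nothing is read from that. The dye term was past the threshold in 1 of the 114 probes (0.877%), against 7.11% of all probes.

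Female and male pupae were then compared. The rule does not use the difference between the sexes, but it uses the lowest pupal mean and so limits how far either may fall. The split of calls moved with it: 148 probes were higher in females and 997 in males over all probes, but 25 and 2 among the 191 probes whose pupal means all lay at least 1 above embryos. The split among the 114 probes is therefore not independent of how they were chosen. In the model over all 24 samples, with a mean per group and a dye term, 14 of the 114 probes (12.3%) passed an adjusted p of 0.05, against 5.07% of all probes. Of these, 13 were higher in females and 1 in males. The 2 samples of an array had a consensus correlation of 0.489, which this model leaves out. With the array as a fixed block 8 probes were called, and with it as a random block 17. The shares of all probes under these 2 models are not given here, so a change over the whole array cannot be told apart. In the model without the array, 0.656% of all probes were called higher in females and 4.42% higher in males. Among the 2784 probes at least as bright in pupae as the dimmest of the 114, the shares were 2.23% and 1.51%. The female mean was above the male mean in 89 of the 114 probes (78.1%), with a median difference of 0.21, against 58.1% and 0.02 over all probes. All 4 female samples lay above all 4 male samples in 16 probes, against 3.78% of all probes, and the reverse held for 0 of the 114, against 5.48%. An unadjusted p under 0.05 was found for 33 (28.9%), against 13.2%.

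Probe 18946 (row 89, column 26) had the largest difference. Female pupae measured 8.27, 8.62, 8.58 and 8.21, male pupae 7.52, 7.54, 6.80 and 7.50, and mixed-sex pupae 7.81, 8.03, 7.59 and 8.13. Each female sample lay above each male sample. The difference was 1.08 (SE 0.17, limma adjusted p = 0.000113), and male replicate 3 was well below the other male samples.

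Probe 1910 (row 9, column 190) had values of 8.25, 8.50, 8.13 and 8.20 in females against 7.44, 7.44, 6.85 and 7.31 in males, again without overlap. The difference was 1.01 (SE 0.15, limma adjusted p = 7.5e-05), and the mixed-sex mean of 7.92 ± 0.33 lay between the sexes. Both of these probes lay at the edge of the rule, with male pupae as their lowest pupal group.

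Probe 20998 was brighter, with 9.80, 10.31, 10.34 and 10.07 in females and 9.27, 8.73, 9.29 and 9.16 in males (difference 1.01, SE 0.20, limma adjusted p = 0.00194). Probe 3960 had 9.94, 10.25, 10.29 and 10.24 in females and 9.32, 9.01, 9.51 and 8.85 in males (difference 1.01, SE 0.22, limma adjusted p = 0.00419). Neither probe's groups overlapped. The other 9 female-higher probes differed by 0.49 to 0.68.

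Probe 7529 was the 1 probe called higher in males. It measured 8.79, 8.11, 9.18 and 8.30 in females and 9.93, 8.88, 9.84 and 9.74 in males, so the groups overlapped. The difference was -1.002 (SE 0.25, limma adjusted p = 0.0167), and the call was lost without any 1 of female replicates 2 and 4 or male replicates 1, 3 and 4, at -0.84 to -0.94. Counting these, the call was lost in 15 of 43 alternative settings. Among them were an offset of 10, subtraction of the background, the deposited values, 75th percentile scaling and the array as a fixed block. The difference stayed negative throughout, from -1.29 to -0.84.

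The mixed-sex mean lay between the female and male means in all 14 called probes. Its median position was 0.44 on a log2 scale running from 0 at the male to 1 at the female mean. When the mixed RNA was compared with the average of the sexes, 0 of the 114 probes passed in limma, 2 had an unadjusted p under 0.05 (1.75%), and the differences ran from -0.33 to 0.34. Over all probes 0.00443% passed and 2.67% had such an unadjusted p.

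The number of sex calls depended on the samples and on the dye. All 13 female-higher probes kept that direction in the Cy3 samples, the Cy5 samples, the 8 dim arrays and the 4 bright arrays, with median differences of 0.62, 0.73, 0.61 and 0.66. These are the samples that made the calls. Within those subsets 4, 1, 0 and 1 of the 114 probes were called by limma, against 3.83%, 1.05%, 3.17% and 1.66% of all probes. The dim arrays held 1 male sample and the bright arrays 1 female sample, and a lone sample was assumed to vary like the other groups. Leaving out 1 sample gave 6 to 17 calls, with 8 without female replicate 2, 7 without female replicate 3, 9 without male replicate 2 and 6 without male replicate 4. The shares of all probes are not given here for these counts. On the 1 array that held a female and a male sample, 12 of the 13 were higher in the female, but over the 114 probes the female was higher in 54 of the 112 measured (48.2%), with a median of -0.01. That share lay below the 60.6% of all probes on this array, the reverse of the order over all samples. The female sample there was dyed with Cy5 and the male sample with Cy3. Their median net signals were 23.2 and 119 scanner units, so sex and dye cannot be told apart on this array.

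Outside pupae, the rule bounds only the highest of the 3 means, so differences among embryos, heads and abdomens were tested. Between male heads and male abdomens 22 of the 114 probes (19.3%) were called, against 19.1% of all probes. Of the 22, 8 were higher in heads and 14 in abdomens, where 7.57% and 11.5% of all probes were. These shares were near those of the whole array. A random block for the array raised the count to 39, against 26.4% of all probes. Embryos and heads differed in 19 probes (16.7%), 12 higher in embryos and 7 in heads, against 18% of all probes, with 9.68% and 8.27% in each direction. Embryos and abdomens differed in 33 (28.9%), 12 higher in embryos and 21 in abdomens, against 25.7%, with 12.6% and 13.1% in each direction. These comparisons share samples with one another.

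Probe 8083 was pupal and also held a level in embryos and heads. Embryos had 9.02, 8.61, 8.80 and 8.84, heads 7.65, 8.53, 8.33 and 8.51, and abdomens 6.70, 6.63, 6.27 and 6.62. Each abdomen sample lay below each embryo and head sample. Heads exceeded abdomens by 1.70 (SE 0.18, limma adjusted p = 9.08e-08) and embryos exceeded abdomens by 2.26 (SE 0.18, limma adjusted p = 1.10e-09). These differences were 1.75 and 2.26 without the 6 samples that shared an array with pupae.

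Probe 5912 was higher in heads alone of the 3. Its head values were 7.26, 7.62, 7.93 and 7.64, and its 8 embryo and abdomen values lay between 6.01 and 6.35. The head minus abdomen difference was 1.42 (SE 0.17, limma adjusted p = 9.67e-07). Probes 12365 and 17386 were likewise called higher in heads than in both other groups.

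Probe 7143 (row 34, column 48) was bright in abdomens, with 9.48, 10.18, 9.62 and 9.99, against 7.84, 7.56, 8.34 and 7.40 in heads and 8.15, 8.31, 9.32 and 9.33 in embryos. Each abdomen sample lay above each sample of the other groups. The head minus abdomen difference was -2.03 (SE 0.26, limma adjusted p = 2.18e-06). Its neighbour on the array, probe 7144 (row 34, column 49), was also among the 114.

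Probe 4619 measured 8.36, 7.53, 7.74 and 7.99 in abdomens. Embryos had 6.54, 6.01, 6.39 and 6.38, and heads 6.31, 6.56, 6.66 and 6.46. Abdomens lay above both without overlap (heads minus abdomens -1.41, SE 0.17, limma adjusted p = 8.25e-07). Altogether 10 probes (8.77%) were called higher in abdomens than in both other groups, against 9.17% of all probes, among them 2774, 4619, 6097, 7143 and 19839. By the same count 4 (3.51%) were higher in embryos than in both others (6238, 8083, 9673 and 12529), against 7.02%, and 3 (2.63%) in heads, against 4.62%.

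Several called differences between embryos and other groups were smaller without the samples that shared an array with pupae. Of the 4 embryo samples, 3 shared such an array. The part of the shared array was not tested. Probe 6238 exceeded heads by 2.40 (SE 0.37, limma adjusted p = 0.000177), with embryo values of 9.14, 8.59, 10.84 and 10.78 against 7.88, 7.58 and 7.13 in the 3 measured head samples. The model pools the spread of all groups. For this probe the SD was 1.15 in embryos but 0 in male and mixed-sex pupae, from the equal values named above. Its SE and p therefore rest partly on groups without a real spread. Without the 6 shared samples only embryo replicate 2 was left, and its spread was taken from the other groups in the model. The difference of probe 6238 was then 1.06. Probe 11324 measured 7.59, 7.57, 9.42 and 9.72 in embryos against 6.95, 6.94, 7.30 and 6.91 in heads (difference 1.55, SE 0.34, limma adjusted p = 0.00171). Its difference was 0.68 without the shared samples. Probe 9673 went from 1.05 to 0.33, and probe 12365, which was called lower in embryos, from -0.86 to -0.62. In that reduced model 7 of the 114 probes were called between embryos and heads, against 8.98% of all probes, and 15 between embryos and abdomens, against 13.9%.

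In all, 57 of the 114 probes passed in none of the 5 comparisons, as did 63.8% of all probes. At least 1 of the 3 comparisons outside pupae was passed by 49 (43%), against 35.6% of all probes. Of the 14 sex-called probes, 6 also differed outside pupae, a share close to the 43% of the 114 probes, so nothing is read from it. At the bright end, probe 8276 had non-pupal means of 9.26 ± 0.40 in embryos, 9.47 ± 0.51 in heads and 9.52 ± 0.43 in abdomens, and pupal means from 11.62 to 11.87. At the dim end, probe 5655 had pupal means of 6.92, 6.92 and 6.98 against 5.86, 5.79 and 5.81, below the 90th percentile of the array even in pupae.

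The probes moved together across the 24 samples, on which the rule chose them by one contrast. The median Pearson r between 2 of them was 0.93, and 239 of 6441 pairs had r over 0.98, which joined 76 probes into 8 sets, the largest of 51. A set of 9 held probes 10859, 6238, 8010, 9673, 12779 and 12075, among them 4 of the 5 with the largest difference between shared and unshared arrays. Over the 6 group means, probe 10859 was most like probes 12075, 767 and 9673 (each r = 0.996), of which probe 767 missed the rule with a margin of 0.97. Probe 8495 was most like probes 12575, 8508 and 17908 (r = 0.998), and probe 19839 was most like probe 2774 (r = 0.999), then 19873 and 7689 (r = 0.998). These are descriptions over 6 points.

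On the array the probes were spread widely: 63 lay in rows 1 to 52 and 51 in rows 53 to 105, and 57 lay on each side of column 107. Another of the 114 was a direct neighbour of 6 of them (5.26%), against 3.93% of all spots. The neighbouring pairs were 881 and 1096, 5881 and 6097, and 7143 and 7144.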

How the data were processed

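The deposited scanner tables hold, per the file headers and the values, mean and median signal intensity and local background intensity for each spot of 1 channel, and a quality mark, a score whose meaning is not given. In the authors' deposited table each value was a natural log, within 8.42e-08 of that of the mean signal less the mean background in the scanner tables. It served as an alternative. The design text states labelling without amplification, and the software is not given in the sources used here. In R 4.3.3 with limma 3.58.1, mean signal was corrected for median local background by normexp with an offset of 50. Spots with a mark above 0 were left out (18 values in 6 of the 114 probes), and log2 values were quantile normalized. A linear model per probe, with 6 group means and a dye term (17 residual degrees of freedom), was fitted to all 22575 probes. Benjamini-Hochberg adjusted p was called at 0.05 over all of them. The code was tested on simulated data. No group was assigned from values, and the 12 arrays were inferred from identical mark patterns. The number of arrays limits the precision.

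The members and lists were chosen with earlier results of these data known. Probes were named by rule: the 12 with the largest margin, 3 on each side of the threshold, up to 4 per direction and comparison by size among those called, the 3 brightest and 3 dimmest outside pupae, and the 3 most alike to each of the 3 leading probes. Probes 12779, 10491, 7144, 12529, 5881, 881 and 1096 and the sets of linked probes were named after their values were seen. Planned markers of tissues could not be used without gene names, and no sequences are shown for the same reason. Alternatives are given in the closing section, and those on shared arrays, array brightness and the median spot signal were added after the data were seen. So were the array as a fixed block and the tests within each dye.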

Additional observations from a re-analysis of the deposited data

Results flagged for a closer look

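Among 222 groups of 4 samples examined, for the named probes and for the median over the 114 probes, 17 held a sample standing apart from the other 3, where chance gives about 5%. Male heads replicate 3 was high in 4 of them: 10.004 in probe 10859 (other head samples 6.40 to 6.498), 9.53 in probe 8010 (6.11 to 6.502), 7.30 in probe 11324 (6.91 to 6.95) and 6.22 in probe 1910 (6.03 in each of the others). The median over the probes was also high there, at 7.10 (6.47 to 6.57). This sample shared an array with a pupal sample, and the other head samples did not. It also had the lowest median net signal of the 24 samples, 5.19 scanner units. Without it the median margin was 1.83, and the part of the shared array was not tested.

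Embryos replicate 2, the embryo sample with no pupal sample on its array, was low in probe 8010 at 6.62 (8.81 to 9.24) and in probe 2774 at 5.85 (6.29 to 6.37). Among other non-pupal samples, probe 13102 was high in embryos replicate 1 at 6.24 (5.90 to 5.94), probe 5655 was high in abdomens replicate 3 at 5.93 (5.76 to 5.78), and probe 17386 was low in heads replicate 1 at 8.02 (8.21 to 8.24).

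In pupae, female replicate 2 was low in probe 6097 at 9.67 (10.27 to 10.29) and in probe 6497 at 9.50 (9.75 to 9.79). Female replicate 1 was low in probe 3960 at 9.94 (10.24 to 10.29) and high in probe 8495 at 10.44 (9.93 to 10.01). Male replicate 3 was low in probe 18946 at 6.80 (7.50 to 7.54), male replicate 2 was low in probe 16225 at 9.93 (10.34 to 10.42), and mixed-sex replicate 4 was low in probe 13102 at 8.34 (8.76 to 8.79).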

How the results depend on the processing

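The number of probes found by the rule was 173 with an offset of 10, 238 with a margin of 0.5 and 45 with a margin of 2, and 101 to 117 when 1 sample was left out. Counts of calls in this section are given without the share of all probes under the same setting. They show how the counts moved, and not whether the 114 probes moved apart from the whole array. The 14 sex calls became 6 with an offset of 10, subtraction of the background, the natural log values of the deposited table or an adjusted p of 0.01, and 2 with scaling to the 75th percentile. They became 8 with only the 2 groups fitted or with the array as a fixed block, 4 in Cy3 alone, 1 in Cy5 alone, 0 in dim arrays, 1 in bright arrays, and 6 to 17 leaving out 1 sample. Heads against abdomens gave 22 calls, 39 with the array as a random block, 11 at an adjusted p of 0.01, 7 in Cy5 alone, and 13 to 27 leaving out 1 sample (13 without heads replicate 4, 14 without abdomens replicate 1 or 3). Embryos against heads gave 19, 10 with 75th percentile scaling, 3 in Cy5 alone, 11 in dim arrays, 7 without the samples sharing an array with pupae, and 16 to 27 leaving out 1 sample. Embryos against abdomens gave 33, 17 with 75th percentile scaling, 21 at an adjusted p of 0.01, 7 in Cy5 alone, 20 in dim arrays, 15 without the shared samples, and 23 to 35 leaving out 1 sample. The mixed-sex comparison gave 0 under each alternative run. Its median over the probes went from -0.02, with 45 of 114 above 0, to -0.27, with 5 above 0, under 75th percentile scaling. Under scaling to the 75th percentile the median difference of all probes was 0.17 between the sexes, against 0.02 under quantile normalization. For heads minus abdomens it was 0.22 against 0.05, and for embryos minus heads -0.20 against -0.00035. The 75th percentile scaling split the calls into 2 higher and 13 lower for heads minus abdomens. It gave 8 and 2 for embryos minus heads, and 4 and 13 for embryos minus abdomens. With the replicate number as a block there were 15, 20, 20, 32 and 0 calls in the 5 comparisons. Same-numbered samples had a median correlation of 0.00 against 0.00 for others, so no pairing by number was seen. Samples sharing an array had a median of only 0.135, so this check cannot exclude such a pairing. Of 551 values of named probes under the alternatives 48 lost their call and 0 changed direction. Dim Cy5 samples limit the levels near the floor.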
